A study of Sus scrofa with 8 samples.

Results

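The genes described here are nuclear receptors and related sensors that read diet, bile, sterols, fatty acids, vitamin D and foreign compounds in the gut: AHR, NR1I2, NR1I3, NR1H3, NR1H4, HNF4A, PPARG, RXRA and VDR. A receptor entered when the array held a probe whose transcript accession is listed under its symbol in a RefSeq gene table, and where several probes did, the one with the brightest mean signal over all arrays stood for the gene. This gave 7 of the 9 receptors, out of 3216 gene symbols that could be named on the array. AHR and RXRA had no probe under this rule and are not analysed here. The choice used brightness and names, not the difference between groups.

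The tissue was the middle jejunum of Duroc × Landrace piglets from 4 litters, all sampled at 25 days of age. The 4 weaned piglets had been taken from the sow at 21 days and put on a basal feed (digestible energy 14.48 MJ/kg, crude protein 20.50%). The 4 suckling piglets stayed with the sow. Per the labels, each group took 1 piglet of near-average weight per litter, and each array held RNA from the whole gut wall of 1 piglet, in which epithelial, immune, vascular, nerve and muscle cells are mixed.

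Most nuclear receptors are transcription factors that sit on DNA, often as a pair with a retinoid X receptor such as RXRA, and change the transcription of nearby genes when a small lipid-like ligand enters their binding pocket. In enterocytes they tie absorbed compounds to the enzymes and carriers that handle them. NR1I2 (PXR) and NR1I3 (CAR) answer to foreign compounds, NR1H4 (FXR) to bile acids, NR1H3 (LXRα) to oxidised sterols, PPARG to fatty acids and VDR to the active form of vitamin D, while HNF4A holds the enterocyte's absorptive gene programme in place. AHR belongs to another protein family but likewise is a ligand-bound transcription factor, known in the gut for its answer to plant indoles and aromatic pollutants.

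Signals are log2 processed intensities with the array's own 75th percentile subtracted, so 0 marks that percentile, and each difference is weaned minus suckling on this log2 scale. That percentile stood at intensities of 316 to 390 in the weaned arrays and 244 to 393 in the suckling arrays, the lowest being suckling replicate 1, and between 67.5% and 71.0% of spots per array were well above background. The scanner software rated the weaned arrays as within range and the suckling arrays as needing evaluation, and the median variation of repeated probes was 6.04% to 7.98% on the weaned arrays and 8.53% to 10.9% on the suckling ones. All weaned arrays lay on 1 slide and all suckling arrays on another, so group and slide cannot be told apart. Suckling replicate 1 stood apart by its median Pearson r of 0.954 with its own group over the tested probes, against 0.978 to 0.981 for the other suckling arrays. It correlated best with weaned replicate 1 (r = 0.978). Suckling replicate 3 also correlated best with a weaned array, replicate 3 (r = 0.983). For many results the value without suckling replicate 1 is given as well. That array was set apart from these same data, so values without it are a description. Markers of absorptive enterocytes were well above background on all 8 arrays for the 5 of 9 with a probe, with a mean log2 signal of 6.87 to 7.89 in weaned piglets and 6.04 to 8.73 in suckling piglets, the lowest again in suckling replicate 1.

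All 7 receptors were well above background on all 8 arrays, and none of them passed the threshold of an adjusted p under 0.05 in limma, against 54 of 30554 tested probes (0.177%) on the whole array. At an unadjusted p under 0.05, PPARG alone of the 7 passed, against 12.3% of all tested probes. PPARG was also the only receptor whose groups did not overlap, and it was higher in weaned piglets. Among all tested probes, 4.93% had groups that did not overlap with weaned higher and 7.76% had groups that did not overlap in either direction, so 1 of 7 lies near that background. The mean was higher in weaned piglets for 2 of the 7, NR1H4 and PPARG, and the median difference of the 7 was -0.18, against 0.04 for all tested probes. Without suckling replicate 1 again 0 of 7 passed the limma threshold, although 1.82% of all tested probes did, and the median of the 7 was -0.30. In bulk tissue such as this, fewer cells of a type and less RNA per cell cannot be told apart. The 4 endothelial markers averaged 1.05 to 1.21 in weaned and 1.36 to 1.62 in suckling piglets, without overlap. Singly, the groups overlapped for KDR, PECAM1 and VWF and stood apart for CDH5 alone (limma adjusted p = 0.346). These markers were named after their values were seen, and their part in the receptor values was not tested.

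**Figure D1:**
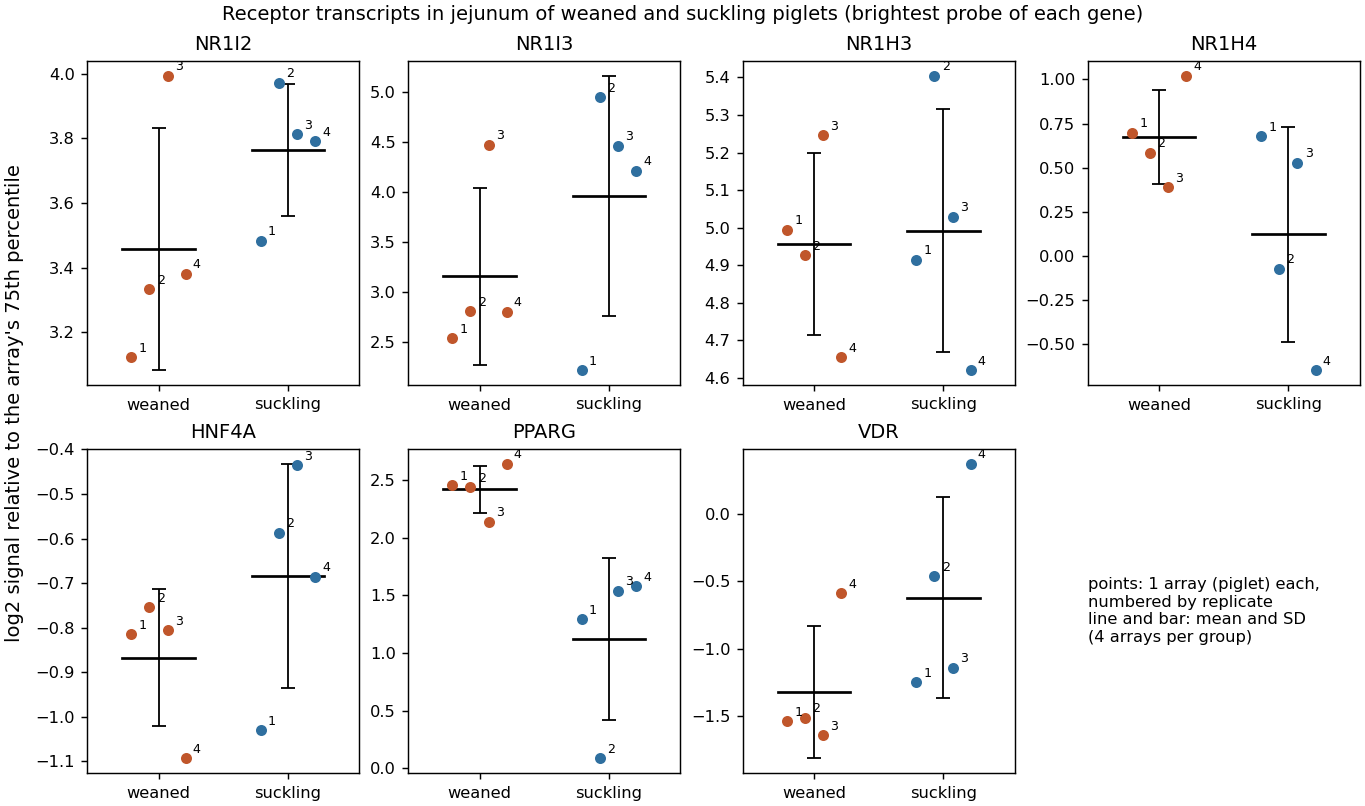
Log2 signal relative to the array's 75th percentile (vertical axes, each with its own range) for the 7 receptors in weaned (left) and suckling (right) piglets. Points are single arrays numbered by replicate, and lines and bars are the mean and SD of 4 arrays; the groups stand apart only for PPARG, where weaned arrays lie at 2.14 to 2.64 and suckling arrays at 0.09 to 1.58.

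The xenobiotic sensors come first. NR1I2 encodes PXR, which in mammals drives CYP3A enzymes when bile acids, drugs or plant compounds bind it. Its log2 signal was 3.12, 3.33, 3.99 and 3.38 in weaned replicates 1 to 4, against 3.48, 3.97, 3.81 and 3.79 in suckling replicates 1 to 4. Weaned replicate 3 was the highest of all 8 and the other weaned arrays were the 3 lowest. The means were 3.46 ± 0.37 in weaned and 3.76 ± 0.20 in suckling piglets (SD, n = 4 each), a difference of -0.31 with a 95% interval of -0.78 to 0.17 and a limma adjusted p of 0.591. The difference was -0.40 without suckling replicate 1, -0.20 without weaned replicate 1 and -0.49 without weaned replicate 3, and none of these passed in limma. The other NR1I2 probes gave differences of -0.16 and -0.03, also short of the threshold.

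NR1I3 encodes CAR, the partner of PXR in drug metabolism, best known for driving CYP2B enzymes. It varied most among the 7: its scaled signal spanned 6.63-fold over the 8 arrays. Its log2 signal was 2.54, 2.81, 4.47 and 2.80 in weaned replicates 1 to 4, against 2.22, 4.95, 4.46 and 4.21 in suckling replicates 1 to 4. The arrays fell into a low set of weaned replicates 1, 2 and 4 with suckling replicate 1, and a high set of weaned replicate 3 with suckling replicates 2, 3 and 4, so the groups overlapped over nearly their whole range. The difference was -0.80 (95% interval -2.21 to 0.60, limma adjusted p = 0.635). Without suckling replicate 1 it was -1.39, or 2.61-fold lower in weaned piglets, with a limma adjusted p of 0.130. Without suckling replicate 2, the highest array, it was -0.48 with a limma adjusted p of 0.845, and without weaned replicate 3 it was -1.24 with 0.418.

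The enzymes that PXR and CAR are known to drive were described as a list of 19, of which 9 were tested and none passed the threshold. Their median difference was -0.45, and 2 of 9 means were higher in weaned piglets. Without suckling replicate 1, which was the lowest of the suckling arrays for 7 of the 9, the median was -0.998 and again none passed. CYP3A29, the pig's main CYP3A enzyme of drug oxidation, had log2 signals of 3.25, 3.12, 5.36 and 3.24 in weaned replicates 1 to 4, against -0.67, 6.50, 5.95 and 6.87 in suckling replicates 1 to 4. It thus had a single very low suckling array, and weaned replicate 3 was the highest weaned one. Its difference was -0.92 (limma adjusted p = 0.842), and -2.70 without suckling replicate 1 (limma adjusted p = 0.052). CYP3A46, a close relative whose probes may share transcripts with CYP3A29, differed by -0.69 (limma adjusted p = 0.856), and by -2.04 without suckling replicate 1 (limma adjusted p = 0.124). CYP2B22, the pig's CYP2B enzyme, had -2.25, -2.89, 3.20 and -3.50 in weaned replicates 1 to 4, against -3.68, 3.57, 1.06 and 0.32 in suckling replicates 1 to 4. These are the same 4 low and 4 high arrays as for NR1I3, and the difference was -1.68 (limma adjusted p = 0.738), or -3.01 without suckling replicate 1 (limma adjusted p = 0.295). SULT2A1, which sulphates steroids and bile acids, had the smallest p of the list, with a difference of 1.80 and a limma adjusted p of 0.383. The mean level of the enterocyte markers moved with these arrays in part. It was lowest in weaned replicate 1 (6.87) and highest in weaned replicate 3 (7.89) within their group, and lowest in suckling replicate 1 within the other. Weaned replicate 4, a low array for NR1I3 and CYP2B22, was at 7.60, above weaned replicates 1 and 2. The part of the marker level in the result was not tested.

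AHR itself is not analysed here. Of 4 tested genes that work with it or answer to it, 1 passed the threshold, CYP1A1, against 0.177% of all tested probes. CYP1A1 was well above background only on the 4 weaned arrays, so it met the filter of 4 arrays through that group alone. Its call is given as a description. CYP1A1, the oxidase whose induction is the classical readout of AHR, had log2 signals of -1.31, -2.44, -2.09 and -0.03 in weaned replicates 1 to 4. In suckling replicates 1 to 4 its values were -5.85, -5.44, -7.04 and -5.51, not well above background on any of the 4 arrays. Fitted to these values, the dim suckling ones included, the weaned minus suckling difference of CYP1A1 was 4.49 with a limma adjusted p of 0.0185. A separate lower bound for weaned over suckling piglets came to 15.9-fold and was not itself tested. It holds only for the scanner software's own background subtraction. This bound sets the weaned mean against a floor on each suckling array, the dimmest signal that still counted as well above background or the probe's own, whichever was higher. Both of its probes were higher in weaned piglets. The limma adjusted p was 0.0268 without suckling replicate 1, but 0.054 without suckling replicate 2 and 0.054 without suckling replicate 3. Background correction with normexp also ended the call, with a difference of 0.97 and a limma adjusted p of 1.0, as did the replicate block, with 0.0544. HSP90AB1 and PTGES3 encode chaperones that keep AHR ready for its ligand in the cytosol. HSP90AB1 differed by 0.04 (limma adjusted p = 0.948) and PTGES3 by 0.59 (limma adjusted p = 0.420).

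The bile acid and sterol sensors follow. NR1H4 encodes FXR, which in enterocytes responds to absorbed bile acids by raising the proteins that carry and export them. Its log2 signal was 0.70, 0.58, 0.39 and 1.02 in weaned replicates 1 to 4, against 0.68, -0.07, 0.53 and -0.65 in suckling replicates 1 to 4. The weaned arrays were all at 0.39 or above and 2 suckling arrays lay among them. The means were 0.67 ± 0.26 in weaned and 0.12 ± 0.61 in suckling piglets (SD, n = 4 each), a difference of 0.55 (95% interval -0.12 to 1.22, limma adjusted p = 0.489), and 0.74 without suckling replicate 1 (limma adjusted p = 0.176). Without suckling replicate 4, the lowest array, it was 0.29 (limma adjusted p = 0.701).

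Only 2 of the 12 listed genes of bile acid handling were tested, and neither passed. SLC10A2 encodes the carrier that takes bile acids from the lumen into the ileal enterocyte, and FABP6 the protein that binds them inside the cell. SLC10A2 had log2 signals of -3.78, -2.99, -3.30 and -1.50 in weaned replicates 1 to 4, against -4.27, -4.57, -5.90 and -7.73 in suckling replicates 1 to 4, and 4 of 4 weaned but 2 of 4 suckling arrays were well above background. The groups did not overlap, and the difference was 2.73 (SE 0.77, limma adjusted p = 0.232). The 2 suckling values below background lay under the arrays' floors, and with both set to the floor the difference was 2.10. FABP6 overlapped widely, with a difference of 1.42 (limma adjusted p = 0.607). Both genes are also the 2 markers of the distal small intestine used here, so their mean level, -3.27 to -0.74 in weaned and -5.60 to -3.10 in suckling piglets, is the same measurement and not a separate one.

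NR1H3 encodes LXRα, the sterol sensor that raises cholesterol export and, through SREBF1, fatty acid synthesis. It was the steadiest receptor beside HNF4A, at 4.99, 4.93, 5.25 and 4.66 in weaned replicates 1 to 4, against 4.91, 5.40, 5.03 and 4.62 in suckling replicates 1 to 4. Each group spanned nearly the range of the other. The difference was -0.04 with a 95% interval of -0.50 to 0.42 (limma adjusted p = 0.957). The other 2 probes gave -0.05 and 0.09, and the sign of the chosen probe turned under 4 of 19 alternative settings.

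Of the genes that LXR drives or that handle sterols, 5 were tested, 4 had higher means in weaned piglets and none passed, with a median difference of 0.76. SREBF1, the transcription factor of lipid synthesis, had log2 signals of 1.74, 1.62, 1.83 and 1.70 in weaned replicates 1 to 4, against 1.00, 0.76, 0.86 and 1.14 in suckling replicates 1 to 4. The groups were tight and did not overlap. The difference was 0.78 (SE 0.14), or 1.72-fold, with a limma adjusted p of 0.0890, and without suckling replicate 1 the limma adjusted p was 0.0445; the second SREBF1 probe differed by 0.07. FASN, which builds fatty acids, differed by 0.98 (limma adjusted p = 0.342), and SCD, which desaturates them, by 0.76 (limma adjusted p = 0.720), or 1.41 without suckling replicate 1 (limma adjusted p = 0.216).

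HNF4A is the transcription factor that keeps enterocytes making apolipoproteins and other absorptive proteins. It varied least: its log2 signal was -0.82, -0.75, -0.81 and -1.09 in weaned replicates 1 to 4, against -1.03, -0.59, -0.44 and -0.69 in suckling replicates 1 to 4. Suckling replicate 1 lay with the weaned arrays and the other suckling arrays were the 3 highest of all 8. The means were -0.87 ± 0.15 in weaned and -0.68 ± 0.25 in suckling piglets (SD, n = 4 each), a difference of -0.18 (95% interval -0.57 to 0.20, limma adjusted p = 0.701), and -0.30 without suckling replicate 1 (limma adjusted p = 0.275). Without suckling replicate 3, the highest array, it was -0.10 (limma adjusted p = 0.890), and without weaned replicate 4, the lowest, -0.11 (limma adjusted p = 0.875). The other HNF4A probes gave -0.20 and -0.09.

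The 8 tested targets of HNF4A all had lower means in weaned piglets and none passed, with a median difference of -0.44. Suckling replicate 1 was the lowest suckling array for 8 of 8, against 37.7% of all tested symbols, and without it the median was -0.93, again with none past the threshold. APOC3, an apolipoprotein of chylomicrons, had the smallest p, at 3.82, 4.79, 7.46 and 6.11 in weaned replicates 1 to 4, against 4.34, 9.13, 8.94 and 9.71 in suckling replicates 1 to 4. Weaned replicate 1 and suckling replicate 1 were both low, and the difference was -2.48 (limma adjusted p = 0.449), or -3.71 without suckling replicate 1 (limma adjusted p = 0.053). The chylomicron proteins APOA1 and APOA4 differed by -0.63 (limma adjusted p = 0.834) and -0.56 (limma adjusted p = 0.690). Without suckling replicate 1 these were -1.76 (limma adjusted p = 0.0683) and -1.05 (limma adjusted p = 0.117).

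**Figure D2:**
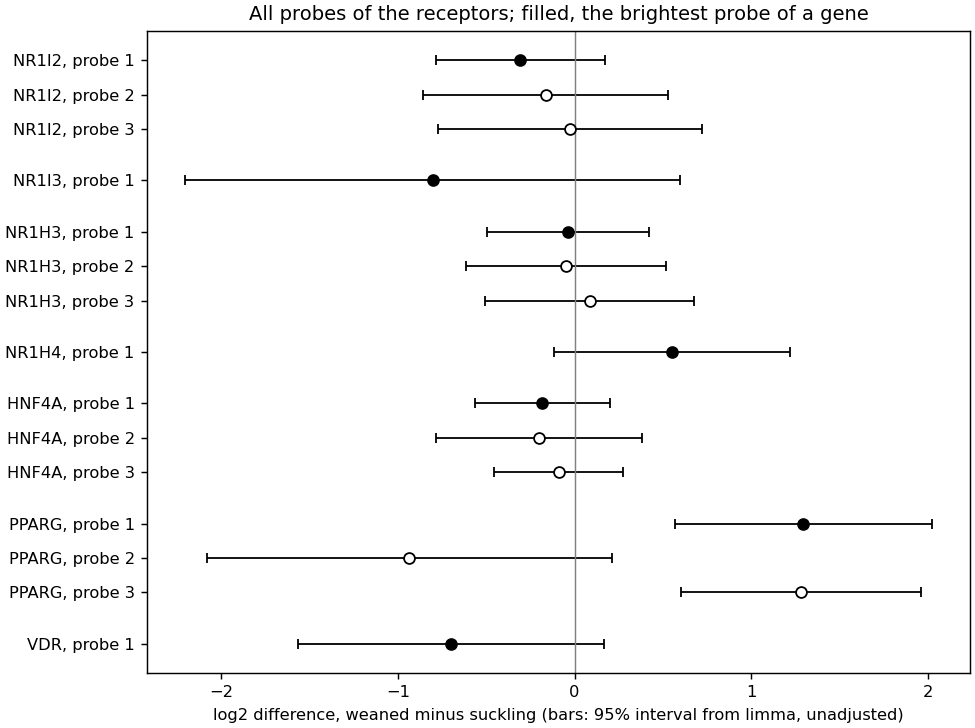
Difference of weaned minus suckling on the log2 scale (horizontal axis) for every probe of the 7 receptors (rows), with 95% intervals from limma, not adjusted for the number of probes. Filled points are the brightest probe of each gene; the probes of NR1I2, NR1H3 and HNF4A lie close together, while PPARG has probes at 1.30, -0.94 and 1.28.

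PPARG encodes the fatty acid receptor that drives lipid storage in fat cells and, in the gut, is present in epithelium and macrophages. Its chosen probe, A_72_P441339, had log2 signals of 2.46, 2.44, 2.14 and 2.64 in weaned replicates 1 to 4, against 1.29, 0.09, 1.54 and 1.58 in suckling replicates 1 to 4. Every weaned array was above every suckling array, and suckling replicate 2 was far below the other 3. The means were 2.42 ± 0.21 in weaned and 1.13 ± 0.70 in suckling piglets (SD, n = 4 each), a difference of 1.30 (SE 0.32, 95% interval 0.57 to 2.03), or 2.46-fold. The unadjusted limma p was 0.00301 and the adjusted p was 0.194, so PPARG did not pass; without suckling replicate 1 the difference was 1.35 with a limma adjusted p of 0.0866, and without suckling replicate 2 it was 0.95 with 0.167.

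The array holds 3 PPARG probes, all under the same transcript accession, and they disagree. A_72_P636927 followed the chosen probe, at 2.28, 2.36, 1.94 and 2.25 in weaned replicates 1 to 4, against 1.21, -0.05, 1.22 and 1.33 in suckling replicates 1 to 4, a difference of 1.28 (SE 0.30, limma adjusted p = 0.174). A_72_P146711 ran the other way, at 0.94, -0.00, 1.40 and 2.48 in weaned replicates 1 to 4, against 2.73, 2.50, 2.01 and 1.32 in suckling replicates 1 to 4. Its groups overlapped, and the difference was -0.94 (SE 0.51, limma adjusted p = 0.494). The chosen probe minus A_72_P146711 gave 1.52, 2.45, 0.74 and 0.17 in weaned replicates 1 to 4, against -1.44, -2.41, -0.47 and 0.26 in suckling replicates 1 to 4. This gap was formed after the probes were seen to disagree and is given without a test. The choice between these probes by brightness was a close one, with geometric mean intensities of 1205 for the chosen probe and 1122 for A_72_P146711, and the mean over all 3 probes differed by 0.55. No source used here gives the probes' sequences or where in the transcript they lie.

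**Figure D3:**
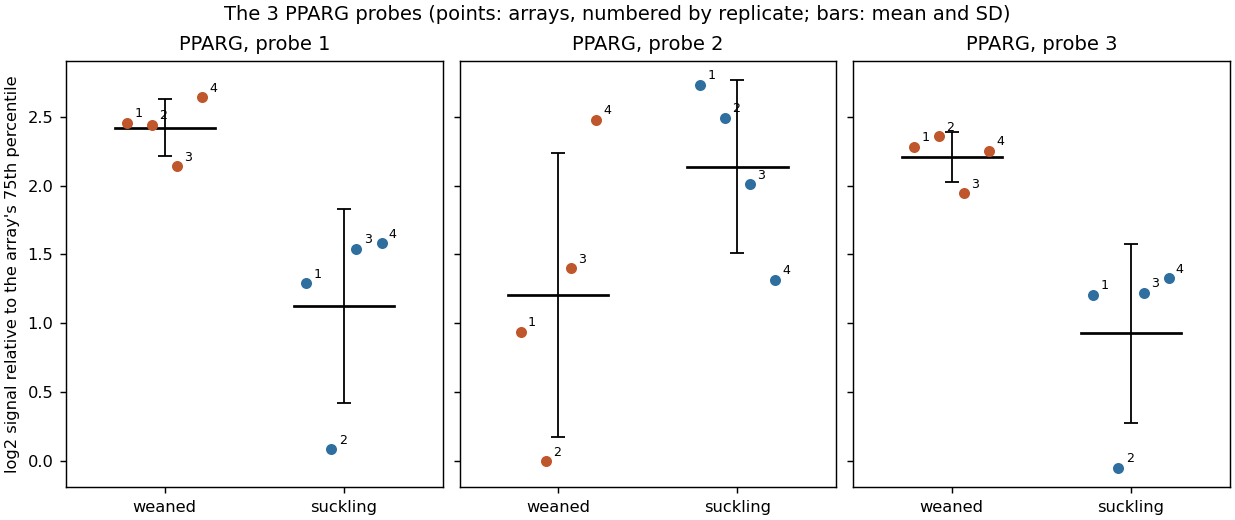
Log2 signal relative to the array's 75th percentile (vertical axis) of the 3 PPARG probes in weaned (left) and suckling (right) piglets; points are arrays numbered by replicate, lines and bars the mean and SD of 4 arrays. Probes 1 and 3 are higher in all weaned arrays, and probe 2, A_72_P146711, overlaps and leans the other way.

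For A_72_P146711 the authors' deposited log2 table also departs from the scanner files. In that table its values were 9.43, 9.24, 9.46 and 9.75 in weaned replicates 1 to 4, against 10.84, 10.94, 10.48 and 10.84 in suckling replicates 1 to 4. The values at the probe's own scanner rank within each array were 9.41, 8.46, 9.85 and 10.84 in weaned replicates 1 to 4, against 11.32, 11.01, 10.49 and 9.75 in suckling replicates 1 to 4. The deposited values of the groups do not overlap and the scanner values do. Fitted to the deposited table, the probe differed by -1.31 (SE 0.17, limma adjusted p = 0.0268), where the scanner files gave -0.94 with 0.494. The other 2 PPARG probes did not depart, and the chosen one differed by 1.25 in the deposited table. The cause of the departure was not tested.

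Of the wider PPAR family and its targets 16 genes were tested, 8 had higher means in weaned piglets, the median difference was 0.00 and none passed. PDK4, the kinase that holds glucose out of oxidation when fatty acids are burned, was the nearest. Its log2 signal was 2.80, 2.27, 1.74 and 2.19 in weaned replicates 1 to 4, against 3.52, 3.67, 4.62 and 4.27 in suckling replicates 1 to 4, without overlap. The difference was -1.77 (SE 0.30), or 3.42-fold lower, with a limma adjusted p of 0.0703, and -1.94 with 0.0343 without suckling replicate 1; all 9 PDK4 probes were lower in weaned piglets. The other PPAR isotypes lay near 0, with PPARA at -0.05 and PPARD at 0.10. CPT1A, which brings fatty acids into mitochondria, and FABP1, which binds them in the enterocyte, both differed by 0.01. Their limma adjusted p were 0.995 and 0.990. The 6 CPT1A probes ran from -0.55 to 0.17, so its direction depends on the probe, and the 3 FABP1 probes from -0.07 to 0.01. Without suckling replicate 1 FABP1 differed by -0.27 (limma adjusted p = 0.397). Markers of fat cells, a cell type rich in PPARG, overlapped between the groups: over the 5 with a probe their mean log2 signal was -2.83 to -2.40 in weaned and -2.81 to -2.22 in suckling piglets, 4 of them were above background on all 8 arrays, and PLIN1 was not well above background on any. The 3 macrophage and dendritic cell markers, CD14, CD163 and FCER1G, averaged 1.47 to 2.65 in weaned and 0.87 to 1.90 in suckling piglets, and their part in the PPARG values was not tested.

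VDR encodes the vitamin D receptor, which in the small intestine raises calcium uptake. Its log2 signal was -1.54, -1.51, -1.64 and -0.59 in weaned replicates 1 to 4, against -1.25, -0.46, -1.14 and 0.37 in suckling replicates 1 to 4. The 3 lowest arrays were weaned and the highest was suckling replicate 4, with weaned replicate 4 inside the suckling range. The means were -1.32 ± 0.49 in weaned and -0.62 ± 0.75 in suckling piglets (SD, n = 4 each), a difference of -0.70 (95% interval -1.56 to 0.17, limma adjusted p = 0.501), and -0.91 without suckling replicate 1 (limma adjusted p = 0.211). Without suckling replicate 4 it was -0.37 (limma adjusted p = 0.715), and with normexp background correction -0.26.

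Of the genes that VDR drives or that handle vitamin D, 7 were tested, 1 had a higher mean in weaned piglets and none passed, with a median difference of -0.23. CALB1, a calcium-binding protein, had the smallest p, with a difference of -1.07 (limma adjusted p = 0.531), or -1.70 without suckling replicate 1 (limma adjusted p = 0.0743), and log2 signals from -4.09 to -3.52 in weaned and from -4.62 to -0.96 in suckling piglets. S100G, the small intestine's main calcium-binding protein, was steady at 9.41 to 9.60 in weaned and 9.56 to 9.91 in suckling piglets, a difference of -0.22 (limma adjusted p = 0.563). CYP24A1, which breaks vitamin D down, differed by -0.08 (limma adjusted p = 0.868). This probe was very bright, at 10.15 to 10.29 in weaned and 10.07 to 10.48 in suckling piglets. The other CYP24A1 probe differed by 0.22, so the direction depends on the probe.

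RXR proteins, other receptors that pair with them, such as THRA, and coregulators were measured for 8 genes, with a median difference of -0.01 and none past the threshold. NCOA1, a coactivator, had the smallest p, with log2 signals of 3.70 to 4.68 in weaned and 4.35 to 4.94 in suckling piglets and a difference of -0.74 (limma adjusted p = 0.293). The RXRA relatives RXRB and RXRG differed by 0.20 and 0.49, but each has 3 probes, which ran from -0.06 to 0.20 for RXRB and from -0.44 to 0.49 for RXRG, so the direction depends on the probe. Among 7 other nuclear receptors, none passed and the median was -0.18. ESR1, an oestrogen receptor, had groups that did not overlap, at -0.55 to -0.35 in weaned and -0.13 to 0.64 in suckling piglets, and a difference of -0.77 (limma adjusted p = 0.196). NR3C1, the glucocorticoid receptor, differed by -0.26 (limma adjusted p = 0.635), or -0.40 without suckling replicate 1. Its 3 probes ran from -0.76 to -0.26. NR2F2, a receptor of mesenchymal cells, differed by 0.08 (limma adjusted p = 0.871).

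Of the nutrient sensors outside the receptor family 4 were tested and none passed. TAS1R3, a subunit of the sweet and umami taste receptors, had log2 signals of -0.24, -0.23, 0.05 and 0.24 in weaned replicates 1 to 4, against -0.17, 1.33, 1.13 and 1.07 in suckling replicates 1 to 4. Suckling replicate 1 alone lay among the weaned arrays, and the difference of -0.89 (limma adjusted p = 0.321) was -1.22 without it (limma adjusted p = 0.0283). MTOR, the kinase that reads amino acid supply, differed by 0.16 (limma adjusted p = 0.643) and PRKAA2, a catalytic subunit of the energy sensor AMPK, by 0.01 (limma adjusted p = 0.994). Over all these lists 70 genes were tested, and 1 passed, CYP1A1 (tested through its weaned arrays alone), against 0.177% of all tested probes. Without suckling replicate 1 there were 4, CYP1A1, SREBF1, PDK4 and TAS1R3, against 1.82% of all tested probes. Without suckling replicate 4 there was 1, and without any other single array 0, with CYP1A1 untested where a weaned array was left out. Suckling replicate 1 was set apart from these same data, so the 3 added genes have no separate support. The groups did not overlap for 7 of the 70, with 4 higher and 3 lower in weaned piglets, against 7.76% of all tested probes.

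**Figure D4:**
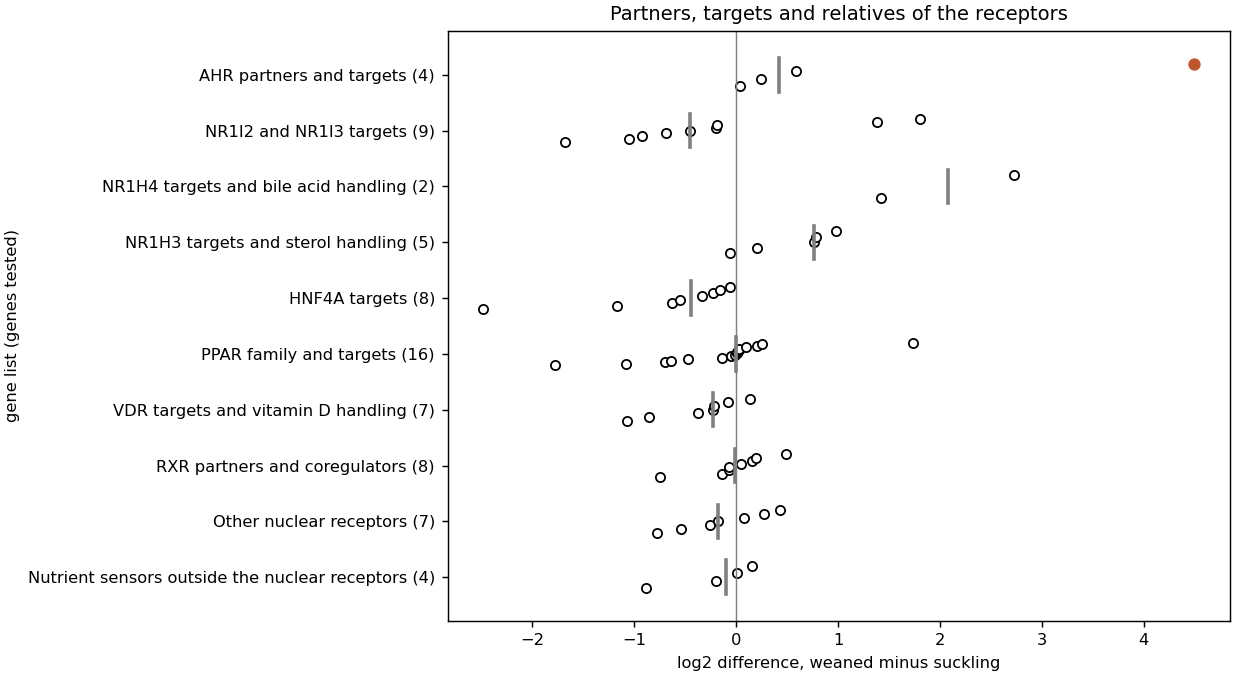
Difference of weaned minus suckling on the log2 scale (horizontal axis) for each tested gene of 10 lists of partners, targets and relatives of the receptors (rows, number tested in brackets). Circles are genes, the filled one is CYP1A1, the only gene past the threshold, and grey ticks are list medians, from -0.45 for the NR1I2 and NR1I3 targets to 2.07 for the 2 bile acid genes (1.76 with SLC10A2 at its floor).

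Across the 8 arrays the receptors did not share a single profile. Relative to its own mean over the arrays, NR1I3 was lowest in suckling replicate 1 (-1.34) and highest in suckling replicate 2 (1.39). PPARG was lowest in suckling replicate 2 (-1.69), and VDR highest in suckling replicate 4 (1.34), where NR1H4 was lowest (-1.04). Suckling replicate 1 was the lowest suckling array for 4 of the 7 receptors, against 37.7% of all tested symbols, and the highest for 1, NR1H4. Weaned replicate 3 resembled the suckling arrays for NR1I2 and NR1I3 but not for PPARG or VDR.

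**Figure D5:**
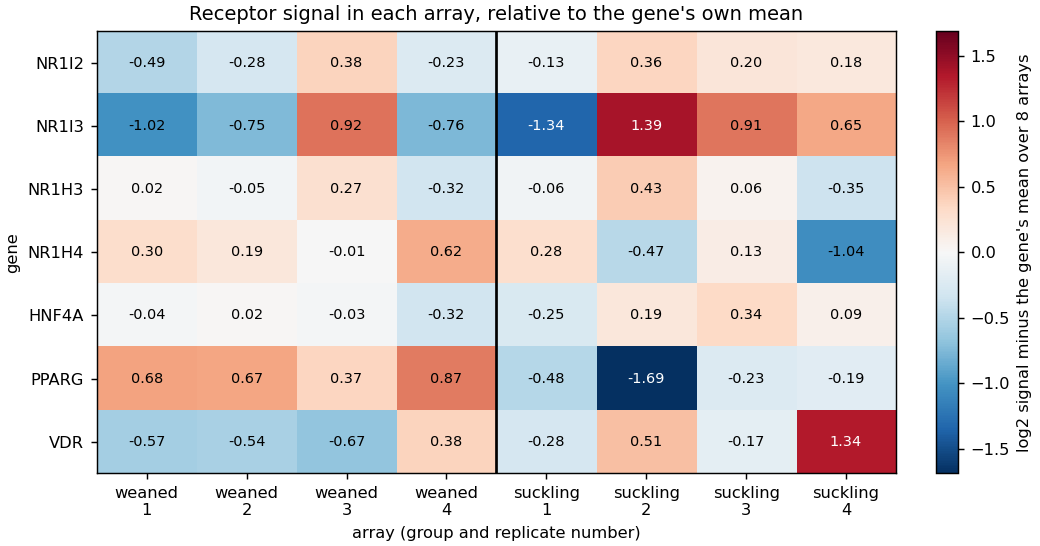
Log2 signal of each receptor (rows) in each array (columns, weaned left of the line and suckling right of it) minus the gene's own mean over the 8 arrays, as colour and number. NR1I3 ranges from -1.34 to 1.39 and HNF4A from -0.32 to 0.34, and PPARG is the only row with 1 sign on each side of the line.

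The genes whose values over the 8 arrays were most like each receptor's were sought among 2766 named genes, as a description by Pearson's r over arrays that share slide and group. NR1I2 was closest to WASL (r = 0.944), an actin regulator, and to NR3C1 (r = 0.935). NR1I3 was closest to MMP20 (r = 0.985), a matrix protease well above background on 7 of 8 arrays, and also to NR3C1 (r = 0.983). The glucocorticoid receptor's own values, 1.01, 1.19, 1.58 and 1.23 in weaned replicates 1 to 4, against 1.08, 1.81, 1.62 and 1.54 in suckling replicates 1 to 4, show the same low and high arrays over a much smaller range. NR1H3 was closest to TATDN1 (r = 0.964) and CKMT2 (r = 0.925). CKMT2 was well above background on 7 of 8 arrays and lowest in suckling replicate 4 (-6.44), where NR1H3 was lowest too. NR1H4 was closest to the proteasome subunit PSMA6 (r = 0.959) and the galectin LGALS9 (r = 0.954), and HNF4A to PLAGL1 (r = 0.966) and POFUT1 (r = 0.951). PPARG was closest to the junction protein JUP (r = 0.944) and to DPM1 (r = 0.942), and VDR to the haem-degrading enzyme HMOX1 (r = 0.963) and to ATP5E (r = 0.961). The number of genes with r over 0.9 ranged from 4 for NR1H3 to 54 for NR1I3.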

How the data were processed

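Jejunal RNA of 4 weaned and 4 suckling piglets was labelled with Cy3 and hybridised to 1-colour arrays, per the labels' protocols, and scanned intensities were extracted with Agilent Feature Extraction 10.7, per the submitters' processing notes. Per the file headers, the processed intensity already had background subtracted by the scanner software. The deposited log2 table of the series has the rank order of the scanner values in each array but for a few values and nearly equal column medians (5.50 in each of the 8 columns), as after quantile normalisation; no source used here states how it was made, and whether a constant was added stays unknown. It served as an alternative.

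From the scanner files, control spots were left out, outlier spots were set to missing, spots of a probe were averaged, and each array's log2 values were reduced by their 75th percentile. Probes well above background on at least 4 arrays, with at least 3 values per group, were tested (30554 of 43603) in R 4.3.3 by the two-sided moderated test of limma 3.58.1 (lmFit, then eBayes) with no term beside group, with Benjamini-Hochberg adjustment over all tested probes and a threshold of 0.05. For CYP1A1, not well above background in 1 group, the fold was taken against a floor on each array of that group, without an interval. RefSeq accessions, matched without versions to a table of the Sscrofa11.1 assembly used for names alone, gave 6924 probes a symbol, or 85.6% of those with a RefSeq accession. The files name no genome build, so no coordinates are given.

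The text names all receptors with a probe. From each gene list it names the genes past the threshold, the 2 tested genes with the brightest mean and the one with the smallest p. For each receptor it names the 2 symbols with the highest r. A gene that this rule selects is not reported here. Other named genes were chosen after their values were seen. The receptors, the lists and the tests were chosen with earlier results of these data known. Of 157 listed genes, 77 had a probe and 70 were tested. The alternatives were median scaling, quantile normalisation, normexp background correction with an offset of 50 on the median spot intensity, other filters, flagged spots kept, a trend with robust prior, array weights, the replicate block, the deposited table, the mean over probes, and each array left out in turn. The test was checked on simulated data with independent noise, no slide effect and no divergent array, so the check does not cover those features of the real arrays. Piglets are separate animals, and the number of arrays limits the precision.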

Additional observations from a re-analysis of the deposited data

Results flagged for a closer look

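The 8 values of each receptor were checked for an array far from the other 3 of its group, by the gap to the nearest of the others as a share of the group's range, with Dixon's 95% critical value as the limit. Of the 16 groups of 4 looked at (7 receptors and CYP1A1), 2 had such an array, and chance gives about 1 in 20. In weaned piglets, NR1I3 in replicate 3 (4.47) lay above the other 3 (2.54 to 2.81), with a share of 0.860. VDR in weaned replicate 4 (-0.59) lay above the other 3 (-1.64 to -1.51), with a share of 0.877. The 2 arrays differ: weaned replicate 3 correlated best with a suckling array, replicate 3 (r = 0.983 over the tested probes), while weaned replicate 4 correlated best with weaned replicate 2 (r = 0.987).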

How the results depend on the processing

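By its chosen probe, none of the 7 receptors passed the threshold under any of 19 alternatives, and all but NR1H3 kept their direction. Of the other probes, A_72_P146711 of PPARG passed in the deposited table (-1.31, limma adjusted p = 0.0268), against the direction of the chosen probe. The differences ranged from -0.49 to -0.04 for NR1I2, -1.39 to -0.48 for NR1I3, 0.29 to 0.74 for NR1H4, -0.30 to -0.10 for HNF4A, 0.55 to 1.45 for PPARG (limma adjusted p from 0.0710 with array weights to 1.0 with normexp) and -0.94 to -0.26 for VDR. NR1H3, at -0.04, turned to 0.21 with normexp, 0.0007 with the mean over probes, and between -0.16 and 0.10 when single arrays were left out (0.10 without suckling replicate 2, 0.06 without weaned replicate 4). The 54 probes past the threshold became 328 with array weights, 0 with normexp and 0 with the replicate block, and the 1 list gene became 3 (CYP1A1, SREBF1 and PDK4), 0 and 0. Leaving out single arrays gave 9 to 553 probes and 0 to 4 list genes; the highest values were without suckling replicate 1. There were 21 probes without suckling replicate 2, 25 without suckling replicate 3, and 10, 11, 20 and 9 without weaned replicates 1, 2, 3 and 4. CYP1A1 differed by 0.97 with normexp (limma adjusted p = 1.0) and had a limma adjusted p of 0.0544 with the replicate block, and without any 1 weaned array its probe fell short of the 4 arrays above background that a test needs. The causes were not tested. The replicate numbers were not taken as pairs: no label ties them to litters, and same-numbered deviations correlated at 0.37, 0.01, 0.19 and -0.02 for numbers 1 to 4. The replicate block changed no receptor's call. For PPARG the direction depends on the probe. No spot was marked as saturated. Dim signal limited the CYP1A1 values in suckling piglets, which were not well above background.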

Other observations

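The departure of 1 PPARG probe from the scanner files led to a look at the whole deposited table, chosen after the values were seen. Each deposited value was set against the value that its scanner rank gives within the same array. The median absolute departure was 0.0011 on the log2 scale. Of 348824 values, 12 departed by over 0.5, of which 4 belonged to spots marked as outliers. A_72_P146711, the PPARG probe, was the only probe with 3 values departing by over 0.5, and in all it departed by over 0.1 in 5 of 8 arrays. There were 5 probes with at least 3 values departing by over 0.1, among them probes of PGA5, a pepsinogen, and TNF, an inflammatory cytokine. The weaned and suckling groups overlapped for 4 of these 5 probes in the scanner values and for 1 of 5 in the deposited table. In each of the 5 the weaned minus suckling difference was larger in size in the deposited table than in the scanner files. It was -2.41 in the table and -2.14 in the scanner files for PGA5, and 1.26 in the table and 0.92 in the scanner files for TNF. How the table was made is not stated in the sources used here, and the cause was not tested.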
